A study of Mus musculus with 24 samples.

Results

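The 3′ untranslated region (3′ UTR) is the part of an mRNA between the stop codon and the poly(A) tail. Its end is set when the transcript is cleaved downstream of a polyadenylation signal, most often the hexamer AATAAA or ATTAAA, and many genes carry more than one such signal. A gene that is cleaved at an early signal gives a short 3′ UTR, and one that is cleaved at a late signal gives a long 3′ UTR with more sites for RNA-binding proteins and microRNAs. Neural tissue is known for long 3′ UTRs, and early embryonic and dividing cells for shorter ones.

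The distal ends of long 3′ UTRs were examined in mouse RNA-Seq tags. Of 22359 main coding transcripts in GENCODE M1 (the one with the longest coding region per gene, build mm9), 3470 had a 3′ UTR of at least 2000 bp, and in 3321 of these it lay in 1 exon. Those with at least 20 tags over the 3′ UTR in the pooled hydrolysed RiboMinus libraries of each tissue were kept, which gave 2035 3′ UTRs. Tags were assigned by their midpoint. The distal to proximal ratio is the tag density in the last 1000 bp divided by that in the first 500 bp of a 3′ UTR. Members were therefore chosen by length and by tag number in both tissues, and not by how their tags divide between the windows. Just inside the tag limit, 48 members with 20 or 21 tags in their lower tissue had a median log2 difference of 0.56 (FH minus CCE), and 49 3′ UTRs just outside it had -0.25.

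The study compared a pair of tissues by ribosomal RNA depleted RNA-Seq. CCE is an embryonic stem cell line of 129/SvEv mice that was grown without LIF and with 0.266 uM retinoic acid for 5 days. FH is the fetal head of FVB/N mice at 14.5 dpc, a mixture of tissues that is mostly brain. The 8 hydrolysed RiboMinus libraries, in which RNA was broken before cDNA synthesis, come from 2 CCE and 2 FH preparations that were each sequenced at Vienna-IMP and Nijmegen. FH preparation 1 went through 1 round of RiboMinus depletion and FH preparation 2 through 2 rounds. A further 6 RiboMinus libraries, 4 of CCE and 2 of FH, were made by shearing cDNA of the same RNA. There was 1 hydrolysed Ribo-Zero library per tissue, made from RNA of a biological replicate. The CCE preparations are technical replicates and no separate animals are stated for FH, so that p values measure only the spread between preparations as numbered. Strain and tissue cannot be told apart. In bulk samples, a lower share of cells with long 3′ UTRs and less long RNA per cell cannot be told apart either.

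Markers followed the labels in the summed RPKM of the hydrolysed preparations. The 4 neuronal genes found of 5 listed summed to 31.7 to 33.0 in CCE and 565 to 579 in FH, the 4 pluripotency genes to 44.5 to 47.9 in CCE and 0 to 0.103 in FH, and the extraembryonic endoderm genes to 237 to 251 in CCE and 63.9 to 68.8 in FH. Sparc made up most of the endoderm sum in both tissues. The 4 neural progenitor genes summed to 15.4 to 16.5 in CCE and 40.1 to 42.1 in FH. Of them only Sox2 was higher in CCE in Ribo-Zero (46.5 RPKM, 22.5 in FH). The muscle genes summed to 31.6 to 32.8 in CCE, mostly Acta1, and 110 to 117 in FH. FH also held RNA of 4 erythroid (1160 to 1254), 3 lens, 4 muscle and 4 epidermal genes. All erythroid, lens, muscle and epidermal genes were above 0 in FH. Their part in the differences between 3′ UTRs was not tested. The RiboMinus libraries held 920424 to 2473448 unique tags, of which 3.27 to 6.96% lay in the 2035 3′ UTRs, and the Ribo-Zero libraries held 28708715 in CCE and 48426051 in FH. A member had a median of 119 tags in the pooled hydrolysed CCE libraries and 107 in FH, and 555 and 781 in the Ribo-Zero libraries. The median length was 3032 bp and the longest 3′ UTR was 23858 bp.

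The numbers of the preparations went against each other at one location. Across 6241 genes, the log2 ratio of CCE preparation 1 to 2 in the hydrolysed Vienna-IMP libraries correlated negatively with that in the hydrolysed Nijmegen (r = -0.69), sheared Vienna-IMP (r = -0.71) and sheared Nijmegen libraries (r = -0.68). Those 3 sets correlated positively among themselves (r between 0.59 and 0.66). For FH the hydrolysed libraries of the locations gave r = -0.50 over 7826 genes. Each preparation as numbered may thus hold tags of both. Standard errors and p values for the numbers as labelled, which are given for single genes below, may then be too small. Calls are therefore given below for the numbers as labelled and for the numbers crossed at one location. No comparison of all 4 libraries per tissue depends on the numbers.

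Signals that lie before the distal window are shown as examples for 7 genes whose results are given below. In each gene the hexamer AATAAA or ATTAAA before the distal window with the largest fall of CCE Ribo-Zero tags was taken. The 300 bases before it were compared with the 300 bases after it. The fall in CCE is part of the choice, which by itself favours a larger remaining share in FH, and the values are a description. Among genes not shown, CCE tags went from 57 to 42 in Rc3h2, 27 to 18 in Htt and 85 to 50 in Caprin1. In Gga2 they went from 392 to 31. Each line gives 30 bases, 5′ to 3′ on the strand of the gene, with the hexamer in capitals.
Ciapin1: ctgttaaatggtATTAAActtttgtgtttt
Gatad2a: ctgcctcctcctAATAAAggctcatttaac
Rnf122: tatttaaagaaaATTAAAtttaataacatg
Nmt1: taacgggtgaatAATAAAagtatatatatt
Zdhhc18: gttcccgtttgtAATAAAgcttctgtttta
Elavl1: gcatttaagaccATTAAAtttgattttgtt
Aars: ttctctgcagaaAATAAAaaggaccatgtg

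The Ciapin1 hexamer began at base 513 of 3279 in the 3′ UTR (shown stretch chr8:97346467-97346496, minus strand). CCE Ribo-Zero tags dropped there from 813 to 25 and FH tags from 457 to 36. The Gatad2a hexamer began at base 1167 of 2775 (chr8:72432559-72432588, minus strand), with 266 and 30 tags in CCE and 116 and 27 in FH. The Rnf122 hexamer began at base 945 of 2789 (chr8:32240098-32240127, plus strand), with 39 and 3 tags in CCE and 56 and 26 in FH. In all 3 genes the tags fell in both tissues, and a larger share was left after the hexamer in FH. The choice by the CCE fall favours this, so it is no evidence of a difference.

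The Nmt1 hexamer began at base 313 of 3144 (chr11:102927383-102927412, plus strand), with 238 and 44 tags in CCE and 149 and 64 in FH. The Zdhhc18 hexamer began at base 1639 of 3357 (chr4:133162915-133162944, minus strand), with 56 and 3 tags in CCE and 41 and 7 in FH. The Elavl1 hexamer began at base 1232 of 4818 (chr8:4288351-4288380, minus strand), with 351 and 127 tags in CCE and 233 and 159 in FH. These again left a larger share of tags in FH, which the choice by the CCE fall favours. The Aars hexamer began at base 343 of 2460 (chr8:113579435-113579464, plus strand), with 801 and 2 tags in CCE and 410 and 3 in FH, a nearly complete fall in both tissues. The annotated ends of 3′ UTRs carry such hexamers as well, as in the Elavl1 stretch tgatattttggtAATAAAtgaagtgggatc (chr8:4284786-4284815) and the Gatad2a stretch accctgaaggacAATAAAgaaatggaccaa (chr8:72430973-72431002).

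Tags were denser in the first than in the last part of the 3′ UTR in both tissues. The median distal to proximal ratio over the 2035 members was 0.50 in the pooled hydrolysed CCE libraries (quartiles 0.231 and 0.948) and 0.567 in FH (0.268 and 1.02). The Ribo-Zero medians were 0.541 (CCE) and 0.635 (FH). The distal window was the denser one in 459 members (22.6%) in CCE and 517 (25.4%) in FH, and held less than 0.25 of the proximal density in 543 (26.7%) and 455 (22.4%). In the Ribo-Zero libraries 483 members (23.7%) fell below that level in CCE and 305 (15%) in FH.

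Along the 3′ UTR cut into 20 bins, the first bin held 2.27 and 2.24 times the mean density of the 3′ UTR in the CCE preparations and 2.00 and 2.04 times in the FH preparations. In bin 18 the values were 0.753 and 0.751 in CCE and 0.838 and 0.794 in FH. The Ribo-Zero libraries had 2.01 in CCE and 1.64 in FH in the first bin and 0.731 and 0.785 in bin 18. In the last bin the CCE preparations had 0.425 and 0.432 and the FH preparations 0.426 and 0.394. CCE tags thus stood above FH tags at the start and below them in bin 18 in both sets of libraries, whereas in the last bin the RiboMinus preparations overlapped.

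**Figure D1:**
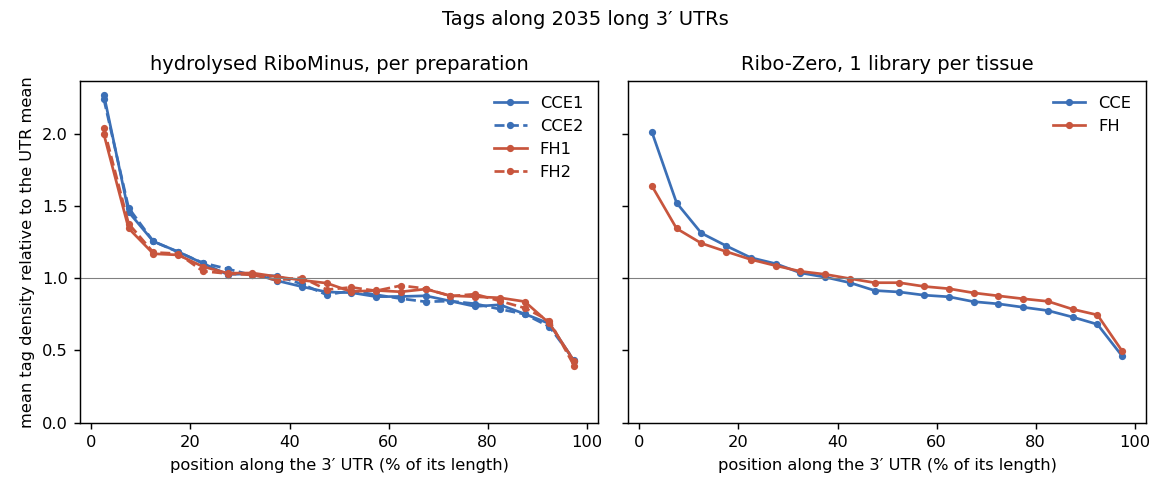
Mean tag density in 20 bins along 2035 long 3′ UTRs, each scaled to its own mean; the x axis is the position from the stop codon in percent of the 3′ UTR length. Left, CCE (blue) and FH (red) hydrolysed RiboMinus preparations; right, 1 Ribo-Zero library per tissue. CCE lies above FH in the first bin (2.27 and 2.24 against 2.00 and 2.04) and all lines fall to under 0.5 in the last bin.

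Summed over all members, the ratio of distal to proximal density in the 4 hydrolysed CCE libraries was 0.551 and 0.534 at Vienna-IMP and 0.510 and 0.525 at Nijmegen. In the 4 FH libraries it was 0.563 and 0.571 at Vienna-IMP and 0.597 and 0.564 at Nijmegen. All FH libraries lay above all CCE libraries, but they are 2 preparations per tissue sequenced at both locations. By preparation as numbered the ratio was 0.532 ± 0.00448 in CCE and 0.572 ± 0.00647 in FH (SD, n = 2 each, two-sided exact permutation test, p = 0.33, the smallest possible for 2 against 2). Where a number holds tags of both preparations, the SD may understate the spread between them. Within Vienna-IMP the means were 0.543 in CCE and 0.567 in FH, and within Nijmegen 0.517 and 0.581. The Ribo-Zero libraries gave 0.540 in CCE and 0.619 in FH.

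The sheared libraries of the tissues overlapped. They ranged from 0.423 to 0.454 in the 4 CCE libraries of 2 preparations and were 0.419 and 0.468 in the 2 FH libraries, both of preparation 1. Every hydrolysed library lay above every sheared library of its tissue. Over 6 pairs of hydrolysed and sheared libraries with the same preparation number and location, the mean difference was 0.103 (0.547 against 0.443, exact sign-flip test, p = 0.0313, the smallest 6 pairs allow). These 6 pairs come from 3 numbered preparations sequenced at both locations, whose mean differences were 0.0802, 0.0939 and 0.136, and with 3 independent pairs no p under 0.25 is possible. The CCE pairs at Vienna-IMP and one of the FH pairs may not hold the same RNA, as the numbers ran opposite (r = -0.71 in CCE at Vienna-IMP and -0.50 in FH between locations).

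For single 3′ UTRs, 44 of the 2035 members (2.16%) had a higher distal to proximal ratio in FH and 8 (0.393%) a lower one (limma, adjusted p under 0.05, preparations as numbered). At an unadjusted p under 0.05 these were 218 (10.7%) and 60 (2.95%). On simulated data the share of false calls among such calls exceeded the nominal level, and the calls depended on the preparation numbers. With the numbers of both tissues crossed at one location, 1 member (Slc16a3) was higher and 1 (Mmp24) lower, and 24 of the 52 calls had an adjusted p under 0.1. With CCE alone crossed, an alternative chosen after the data were seen, 11 were higher and 4 lower. All 44 stayed above 0 and all 8 below 0 under both. Crossing only regroups the same libraries and leaves the differences nearly unchanged, so kept signs are no further evidence. With each of the 8 libraries as a sample, 25 were higher and 7 lower. The last 500 bp as distal window gave 2 and 1, and no member passed in limma with the 20-tag limit taken over all files (309 at an unadjusted p under 0.05), without that limit (323) or with Nijmegen libraries alone (184). Leaving out any 1 of the 8 libraries left 3 to 14 higher and 1 to 4 lower, and leaving out any 1 preparation left none in limma, with 157 to 168 members at an unadjusted p under 0.05.

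The median difference over all members was 0.21 on the log2 scale (FH minus CCE). Relative to that shift, with each preparation centred on the median of all members, 26 were higher and 8 lower, so that 76.5% of the calls were higher in place of 84.6%. The called differences ranged from 0.70 to 3.64 on the log2 scale among the 44, and from -1.52 to -3.86 among the 8. All values on this scale carry a pseudocount of 1 tag per window, which can lower or raise a difference where tags are few. Of the 52 calls, 44 had tags in every pooled window, and the fitted difference was smaller than the pooled one without a pseudocount in 38 of them and larger in 6. Ddx3x, called higher with a log2 difference of 1.68, had 0 distal tags in CCE and 1 in FH, and its Ribo-Zero fold was 0.537. Of the 44, 13 had at most 3 distal tags in CCE and 5 had none. Of the 52 calls, 11 overlapped an exon of another gene, beside 287 of the 2035 members. Tags of the overlapping genes cannot be told apart as tags carry no strand.

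A count that needs no model also gave more members higher than lower in FH. It used the same hydrolysed libraries as the calls, and each preparation was sequenced at both locations. The count is therefore no independent support for the calls. Without a pseudocount, all 4 FH libraries lay above all 4 CCE libraries in 78 members (3.83%) and below them in 18 (0.885%). Of the 44 called higher 25 were among the 78, and of the 8 called lower 4 were among the 18. With the pseudocount the counts were 102 (5.01%) and 28 (1.38%). For independent libraries without a tissue difference, full separation in either direction has a probability of 0.0286. That is the smallest p of the exact permutation test for 4 against 4, shared evenly by the directions. The libraries here are not independent, as each preparation was sequenced at both locations. The shares above and below therefore cannot be judged against that level, and no conclusion is drawn from it.

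The Ribo-Zero libraries, whose RNA had no part in these calls, had a higher ratio in FH in 1411 members (69.3%), with a median log2 difference of 0.23. It was over 2-fold higher in 323 (15.9%) and over 2-fold lower in 28 (1.38%). There was 1 library per tissue, so these have no replicate check. Of the 44 members called higher, 39 were higher in the Ribo-Zero library of FH and 29 over 2-fold, with a median log2 difference of 1.26. Of the 8 called lower, 3 were lower there and 1 over 2-fold, with a median of 0.09. The higher calls thus kept their direction in a larger share than the background of 69.3%, whereas 3 of 8 (37.5%) among the lower calls is near the 30.7% of all members that were lower in Ribo-Zero. Of the 78 members with all FH libraries above, 70 were higher in Ribo-Zero and 33 over 2-fold, and of the 18 with all below, 12 were lower and 3 over 2-fold. Across members, the RiboMinus and Ribo-Zero log2 differences had r = 0.36 over 2035 members, 0.50 over the 788 with at least 50 tags in the windows in each tissue and 0.65 over the 128 with at least 200. These members are not independent replicates, and r is given as a description.

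**Figure D2:**
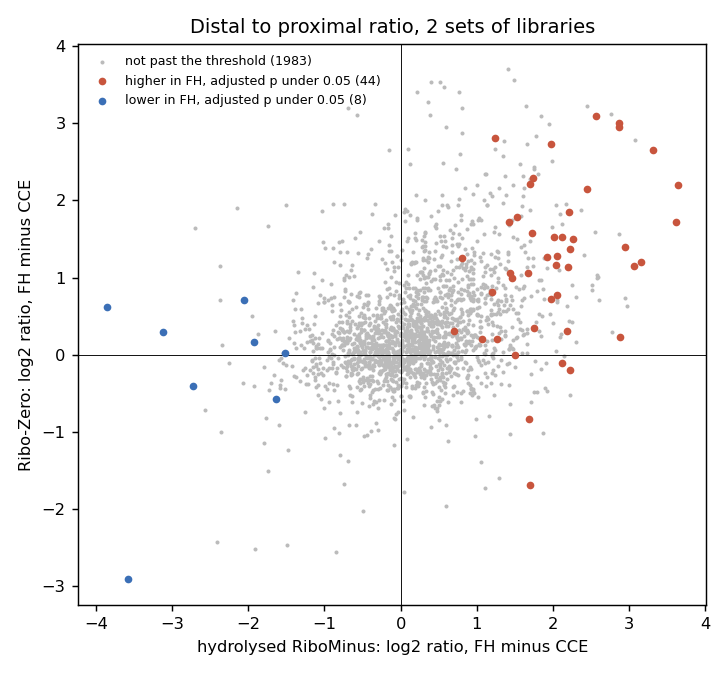
Log2 distal to proximal ratio, FH minus CCE, of the 2035 members in hydrolysed RiboMinus preparations (x axis) and in the Ribo-Zero libraries (y axis), 1 point per 3′ UTR. The 44 members called higher (red) lie mostly in the upper right, with 39 above 0 on the y axis, and of the 8 called lower (blue) 3 lie below 0.

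Densities were then set against the coding exons of the same transcript to see which window moved. Among the 44 members called higher, the median distal density relative to coding exons was 1.85 higher in FH on the log2 scale in RiboMinus and 1.31 higher in Ribo-Zero. Their proximal density relative to coding exons differed by -0.21 and 0.01. Over all members the medians were 0.11 and 0.20 for the distal and -0.08 and -0.01 for the proximal window. In 37 of the 44 the distal rise was larger than the proximal fall, and in the other 7 the proximal fall was larger. In Eif2c2, Col12a1 and Ube2l3 both densities were lower in FH, with log2 differences of -0.16, -0.13 and -1.47 (distal) and -2.55, -1.58 and -2.79 (proximal) in RiboMinus. In the 8 called lower, the medians were -1.57 (distal) and 0.73 (proximal) in RiboMinus, but -0.63 and -0.83 in Ribo-Zero.

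Longer 3′ UTRs were more often over 2-fold higher in the FH Ribo-Zero library. Of 990 members of 2 to 3 kb, 12.4% were over 2-fold higher in FH and 1.52% over 2-fold lower. Of 786 members of 3 to 5 kb these were 17.2% and 0.636%, and of 259 members of 5 kb and over 25.1% and 3.09%. The median log2 difference in the same order was 0.16, 0.25 and 0.36, and in hydrolysed RiboMinus 0.15, 0.22 and 0.36. The limma calls higher in FH numbered 23, 16 and 5 (2.32, 2.04 and 1.93%), with no such order. No test was made between length classes.

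**Figure D3:**
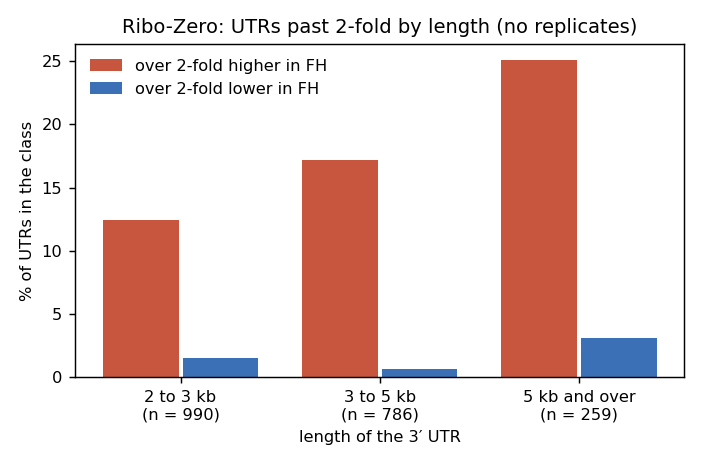
Share of members (y axis, %) whose distal to proximal ratio was over 2-fold higher (red) or lower (blue) in the FH than in the CCE Ribo-Zero library, by length of the 3′ UTR (x axis). The red bars stand at 12.4, 17.2 and 25.1% in 990, 786 and 259 members, with no replicates.

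Among the genes with at least 50 tags in the windows, no overlap with another gene and all FH libraries on one side of all CCE libraries, the 12 with the largest higher ratio in FH that passed the test are given next. Separate libraries, with the pseudocount, were a condition of this choice. Statements below that libraries do not overlap are therefore no further evidence for these 12 genes. Of these, 10 kept separate libraries without a pseudocount and 9 passed with 8 libraries as samples. None passed with crossed numbers, where 9 had an adjusted p under 0.1. In Ribo-Zero 11 were higher, beside 69.3% of all members, and 9 were over 2-fold higher, beside 15.9%. Each of the 11 had a 95% interval above 1, and the share of all members with such an interval is not given here. In the sheared libraries, with the pseudocount, both FH libraries lay above all 4 CCE libraries in 5 of the 12 and overlapped them in 7. The share of all members that separated in this way is not given here, so these counts are a description. Both FH sheared libraries are of preparation 1, and the sheared RNA is the RNA that gave the calls. Without the pseudocount the FH libraries lay above in 3, Cox19, Zdhhc18 and Nmt1, and Ciapin1 had no sheared distal tag in either tissue. The Ribo-Zero intervals are exact and cover counting error only, since repeated starts can come from a single molecule.

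Cox19, which encodes a mitochondrial protein needed to assemble cytochrome c oxidase, was among the clearest (3′ UTR chr5:139812143-139814244, minus strand, 2102 bp). The Cox19 ratio in the hydrolysed CCE libraries was 0 and 0.0256 at Vienna-IMP and 0.0357 and 0.0189 at Nijmegen, and in FH 0.107 and 0.130 at Vienna-IMP and 0.250 and 0.187 at Nijmegen. All FH libraries lay above all CCE libraries. The log2 difference was 2.87 ± 0.33 (SE, limma adjusted p = 2.39e-05). With numbers crossed the limma adjusted p for Cox19 was 0.0566. In Ribo-Zero, Cox19 had 13 distal and 300 proximal tags in CCE and 158 and 440 in FH, an 8.29-fold higher ratio (95% interval 4.59 to 16.2). Few CCE tags lay in the distal window of the Cox19 3′ UTR, and no hexamer before that window met the limits on tags and reachable positions.

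Ciapin1 encodes a factor of cytosolic iron-sulphur cluster assembly (chr8:97343718-97346996, minus strand, 3279 bp). Its hydrolysed libraries held 1 distal tag against 1191 proximal tags in CCE and 5 against 397 in FH, and without a pseudocount the libraries of the tissues overlapped. The pooled ratio was 15-fold higher in FH with a counting interval of 1.67 to 710. The limma difference of 2.87 ± 0.25 (adjusted p = 7.1e-07) therefore rests on very few distal tags. With numbers crossed the limma adjusted p for Ciapin1 was 0.084. The deeper Ribo-Zero libraries had 8 distal and 1540 proximal tags in CCE and 43 and 941 in FH, an 8.80-fold higher Ciapin1 ratio (4.06 to 21.7). Nearly all tags of Ciapin1 lay before the hexamer at base 513 in both tissues.

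Gatad2a encodes a subunit of the NuRD chromatin remodelling complex (chr8:72430968-72433742, minus strand). The Gatad2a ratio in CCE was 0.167 and 0.0556 at Vienna-IMP and 0.0571 and 0.0845 at Nijmegen, and 0.50 and 0.583 in FH at Vienna-IMP and 0.250 and 0.50 at Nijmegen. The tissues did not overlap. The log2 difference was 2.23 ± 0.40 (limma adjusted p = 0.00262) and the Ribo-Zero ratio was 2.59-fold higher (1.89 to 3.54). Its tags dropped after the hexamer at base 1167 in both tissues.

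Caprin1 encodes an RNA-binding protein of stress granules (chr2:103603098-103606955, minus strand, 3858 bp). The Caprin1 ratio was low and tightly grouped in CCE, with 0.0302 and 0.0250 at Vienna-IMP and 0.0225 and 0.0223 at Nijmegen, and 0.111, 0.10, 0.0641 and 0.136 in FH. The log2 difference was 1.98 ± 0.29 (limma adjusted p = 0.000351), and the Ribo-Zero fold was lower, at 1.66 (1.34 to 2.06).

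Nmt1 encodes an N-myristoyltransferase. The Nmt1 ratio was 0.304, 0.196, 0.227 and 0.0897 in the CCE libraries and 0.800, 0.857, 0.800 and 0.800 in FH, which did not overlap. The log2 difference was 2.04 ± 0.47 (limma adjusted p = 0.022), with a Ribo-Zero fold of 2.26 (1.67 to 3.06). In FH it rests on 5 to 7 proximal tags per library.

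Htt encodes huntingtin. In CCE the Htt ratio was 0.0769, 0.143, 0.0714 and 0.441, compared with 0.906, 0.50, 0.667 and 0.708 in FH, again without overlap but with 1 CCE library close to FH. The log2 difference was 2.05 ± 0.53 (limma adjusted p = 0.0407), and the Ribo-Zero fold was 1.71 (1.07 to 2.73).

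Zdhhc18, a protein palmitoyltransferase gene, had 0.0417, 0, 0.0217 and 0.0385 in CCE and 0.225, 0.125, 0.0714 and 0.182 in FH (log2 difference 2.20 ± 0.49, limma adjusted p = 0.0184, Ribo-Zero fold 2.24, 1.16 to 4.44). Gga2, which encodes an adaptor of the trans-Golgi network (chr7:129130236-129133204, minus strand), had 4 distal and 214 proximal tags in CCE and 10 and 112 in FH, and its libraries touched without a pseudocount, at 0.0139 in both tissues. The Gga2 difference was 1.92 ± 0.42 (limma adjusted p = 0.0156), and the Ribo-Zero fold was 2.39 (1.53 to 3.69). The uncharacterised genes 2310028O11Rik and 5930434B04Rik had log2 differences of 2.56 ± 0.47 and 2.05 ± 0.33 (limma adjusted p = 0.00355 and 0.00112) and Ribo-Zero folds of 9.18 (4.59 to 19.9) and 2.43 (1.70 to 3.44). The pooled sheared libraries of 5930434B04Rik nearly matched, with 58 distal and 36 proximal tags in CCE and 28 and 16 in FH (log2 difference 0.10), and its proximal density relative to coding exons fell by 1.29 in RiboMinus while the distal density was 0.81 higher.

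Rnf122 and Rc3h2 had windows without tags. Rnf122, which encodes a RING finger ubiquitin ligase, had no distal tag in any hydrolysed CCE library, with 84 proximal tags, and 8 distal with 76 proximal tags in FH. Against a floor of 3 tags over the CCE pool, the Rnf122 ratio was 2.95-fold higher in FH, a value without counting error (limma adjusted p = 0.00894). In Ribo-Zero it was 4.79-fold higher (2.48 to 10.1). Rc3h2, which encodes the RNA-binding protein roquin-2, had 74 distal and 8 proximal tags in CCE and 66 and 0 in FH. With the same floor over the FH pool its ratio was 2.38-fold higher in FH (limma adjusted p = 0.034). The Ribo-Zero ratio was 0.922-fold (0.679 to 1.25), so Rc3h2 was the exception among the 12.

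**Figure D4:**
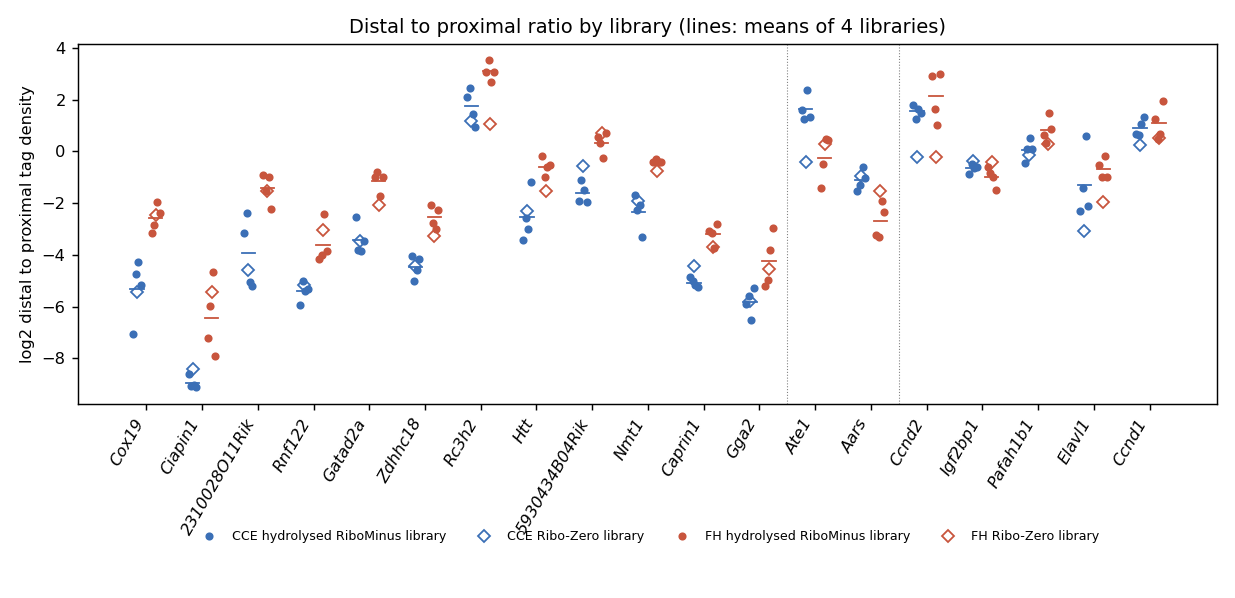
Log2 distal to proximal ratio, with 1 tag added to each window, in each of the 4 hydrolysed RiboMinus libraries per tissue (dots, CCE blue, FH red, lines mark means) and in the Ribo-Zero library (open diamonds) for the 12 genes higher in FH, for Ate1 and Aars, and for 5 genes with known alternative 3′ UTRs. The 12 genes, from Cox19 to Gga2, were chosen with all FH dots above the CCE dots, and Ate1 and Aars with all FH dots below. The diamonds of Rc3h2 and Ate1 do not follow the dots.

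Ribo-Zero tags along the 3′ UTR are plotted for 6 genes. In Gatad2a and Ciapin1 the tags fell at a hexamer in both tissues, and the part beyond it held a larger share in FH. Both genes were chosen for a higher ratio in FH, and their hexamers by the fall in CCE. In Cox19 the share between 1000 and 2100 bases was higher in FH without such a step. In Aars the tags fell to nearly none after base 343 and returned further downstream in both tissues.

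**Figure D5:**
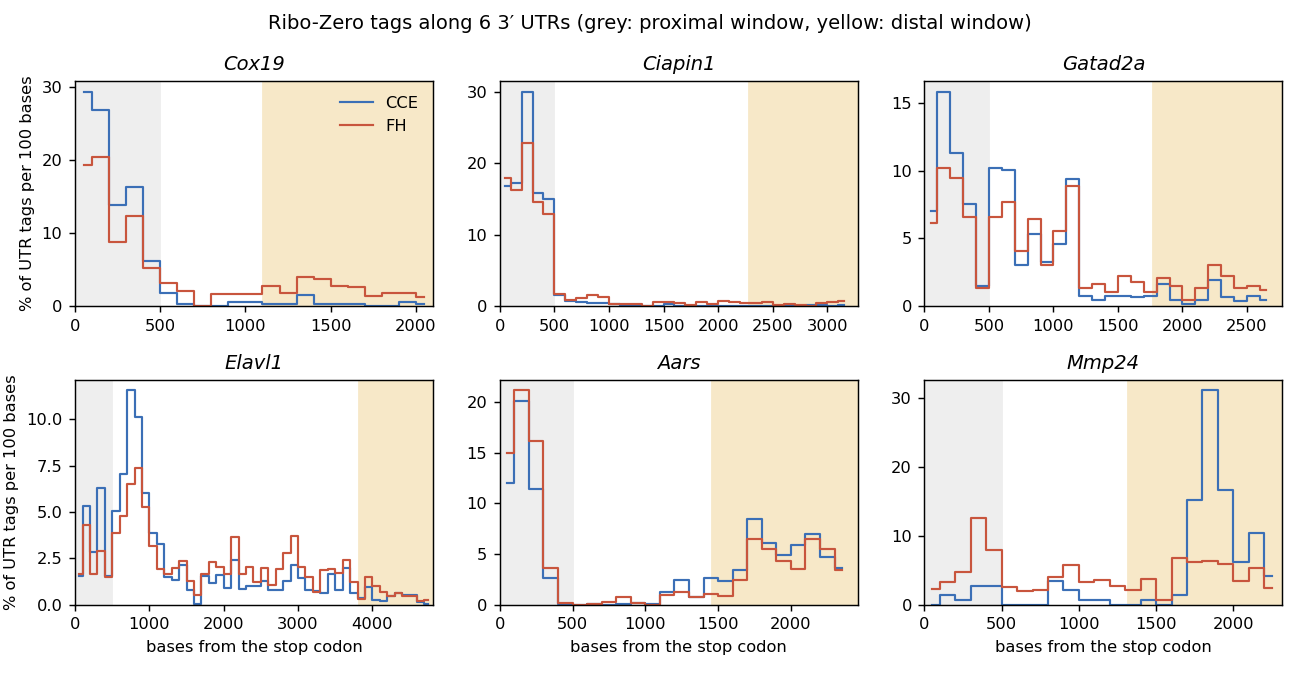
Share of the Ribo-Zero tags of a 3′ UTR (y axis, %) in each 100 bases from the stop codon (x axis) in CCE (blue) and FH (red), with the proximal window grey and the distal window yellow. FH exceeds CCE in the distal window of Cox19, Ciapin1 and Gatad2a, and CCE exceeds FH there in Mmp24.

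A lower ratio in FH was rarer. Apart from the test, 11 genes met the same conditions in that direction, against 45 in the higher direction. Of the 11, 2 passed the test, Ate1 and Aars. Separate libraries were again a condition of the choice. Aars encodes alanyl-tRNA synthetase (chr8:113579105-113581564, plus strand, 2460 bp). The Aars ratio in CCE was 0.342 and 0.409 at Vienna-IMP and 0.670 and 0.486 at Nijmegen, and 0.0833, 0.0862, 0.250 and 0.182 in FH. All FH libraries lay below all CCE libraries, with a log2 difference of -1.63 ± 0.29 (limma adjusted p = 0.00257). The Aars Ribo-Zero ratio was 0.673-fold (0.572 to 0.791). Ribo-Zero tags fell to nearly none after base 343 in both tissues and returned further downstream. Whether the distal tags belong to the same transcript as the proximal ones was not tested. The sheared Aars libraries ranged from 0.689 to 2.78 in CCE, and were 0.786 and 1.60 in FH, which overlapped.

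Ate1 encodes arginyl-tRNA-protein transferase. The Ate1 ratio was 4.25, 3.00, 7.50 and 3.50 in CCE on 2 or 3 proximal tags per library, and 0.357, 0.750, 1.62 and 1.67 in FH (log2 difference -2.06 ± 0.53, limma adjusted p = 0.0407). In Ribo-Zero it went the other way, with a fold of 1.64 (1.18 to 2.26). The other 9 genes, which did not pass, had log2 differences between -1.95 (Crebzf) and -0.42 (Zfp710), and 4 of them had a Ribo-Zero ratio under 1, with the interval below 1 for Zc3h4 alone (0.593-fold, 0.442 to 0.794).

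Several further called genes, which missed these conditions or ranked below the 12, were chosen after their values were seen. Mmp24, a membrane-bound matrix metalloproteinase gene (chr2:155641785-155644102, plus strand), had 90 distal and 6 proximal tags in CCE and 228 and 234 in FH. The Mmp24 difference was -3.58 ± 0.36 (limma adjusted p = 4.75e-06) and the Ribo-Zero ratio 0.123-fold (0.0588 to 0.233). Its 3′ UTR overlaps BC029722, and tags of both genes cannot be told apart. Slc16a3, which encodes a lactate transporter (chr11:120819447-120822182, plus strand), had ratios of 0.0147, 0.0149, 0.00826 and 0.00993 in CCE and 0.0508, 0.0444, 0.0357 and 0.0581 in FH. The Slc16a3 difference was 1.98 ± 0.23 (limma adjusted p = 2.82e-05) and the Ribo-Zero fold 6.62 (4.52 to 9.62), and its 3′ UTR overlaps Csnk1d. These are the 2 genes called with numbers crossed.

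Cox4nb had ratios of 0.0726, 0.0312, 0.200 and 0.117 in CCE and 0.192, 0.385, 0.571 and 0.33 in FH, so that 1 CCE library reached into the FH range. The Cox4nb difference was 2.01 ± 0.42 (limma adjusted p = 0.0104) and the Ribo-Zero fold 2.88 (2.09 to 3.99). Its sheared libraries went the other way, with 0.184 to 0.250 in CCE and 0.125 and 0 in FH on at most 2 distal tags.

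Igf2, an imprinted gene for a fetal growth factor, had the smallest difference among the 44. In CCE the Igf2 ratio was 3.40, 3.52, 2.88 and 2.17, compared with 5.81, 5.86, 3.13 and 4.16 in FH, so that the lowest FH library overlapped the CCE range. The difference was 0.70 ± 0.07 on the log2 scale (limma adjusted p = 6.15e-06) and the Ribo-Zero fold 1.24 (1.16 to 1.33). The Igf2 call was lost with numbers crossed (limma adjusted p = 0.256) and with 8 libraries as samples (limma adjusted p = 0.166). Lrrc40 had Ribo-Zero ratios of 0.0830 in CCE and 0.534 in FH (6.43-fold, 4.26 to 9.81, limma adjusted p = 0.0139 in RiboMinus). Ap3s2, which encodes a subunit of the AP-3 adaptor complex, had 0.10, 0.139, 0.120 and 0.154 in CCE and 0.33, 0.323, 0.405 and 0.361 in FH (log2 difference 1.44 ± 0.26, limma adjusted p = 0.00262), and a Ribo-Zero fold of 2.09 (1.60 to 2.73). Cfl2, which encodes the muscle form of cofilin, rose by 1.67 ± 0.31 (limma adjusted p = 0.00442) with a Ribo-Zero fold of 2.08 (1.72 to 2.52). Ap3m1 fell by 1.92 on the log2 scale (limma adjusted p = 2.91e-05) in a 3′ UTR that overlaps Vcl, and its Ribo-Zero fold was 1.12 (0.766 to 1.66).

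Further large differences were seen in the Ribo-Zero libraries alone, among members with at least 100 tags in the windows of each library that were neither called in RiboMinus nor overlapped another gene, and these too were chosen after their values were seen. Adsl, which encodes adenylosuccinate lyase, had 5 distal and 190 proximal tags in CCE and 40 and 139 in FH, a fold of 10.9 (4.14 to 36.2). Fundc2 had a fold of 7.48 (4.16 to 14.1), Banp 6.24 (3.75 to 10.5) and Eif1ax, a translation initiation factor gene, 6.20 (3.83 to 10.5). Tmem214 had 14.2 (5.05 to 55.1). In RiboMinus the log2 differences were 2.45 for Adsl, 1.78 for Fundc2, 0.78 for Banp, 1.35 for Eif1ax and 0.51 for Tmem214, and none was called. Among the 15 largest differences of such uncalled members in this direction, the RiboMinus difference was above 0 in 12 and below 0 in 3, from -0.69 to 3.08 on the log2 scale. The median RiboMinus difference over all members was itself above 0, at 0.21. The 3 genes below 0 rest on few RiboMinus tags and show no clear direction. They were 1810013D10Rik (Ribo-Zero fold 11.9, with 1 distal tag in CCE and 0 in FH in RiboMinus), Pde3b (16.3, with none in either) and Fbxo3 (7.41, with 2 and 4). Several of the 12 above 0 rest on equally few distal tags. In CCE and FH these were 1 and 0 in Eif1ax (1.35), 0 and 1 in Sdhc, 1 and 4 in Ift46 and Xpo7, 1 and 3 in Fundc2 and 2 and 4 in Commd2. In the lower direction Camk2n1, which encodes an inhibitor of CaM kinase II, had a fold of 0.347 (0.190 to 0.630) and Bicd2, a dynein adaptor gene, 0.493 (0.332 to 0.723), with RiboMinus differences of -1.75 and -2.35. Of the 8 largest differences of uncalled members in this direction, 5 were below 0 in RiboMinus and 3 above 0. The 3 were Map3k2 (0.481-fold, RiboMinus 1.44), Galnt7 (0.492-fold and 1.87) and Bnip3l (RiboMinus 1.11). Bnip3l had no proximal Ribo-Zero tag in CCE and 3 in FH, in a window with 16 of 500 positions reachable by unique tags, so that it gives no usable ratio.

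Of 14 genes listed for known alternative 3′ UTRs, 5 were members and none passed the limma test (2 higher at an unadjusted p under 0.05), against 2.16% of all members called higher and 0.393% lower. Their median log2 difference was 0.58 in RiboMinus and 0.26 in Ribo-Zero, beside 0.21 and 0.23 over all members. Elavl1, which encodes the AU-rich element binding protein HuR (chr8:4284782-4289599, minus strand), had ratios of 0.188, 0.357, 2.50 and 0.208 in CCE and 0.750, 0.50, 1.00 and 0.50 in FH, where the CCE value of 2.50 came from 5 distal tags and 1 proximal tag. The Elavl1 difference was 1.18 ± 0.60 (limma adjusted p = 0.414), and the Ribo-Zero ratio was 2.17-fold higher (1.65 to 2.86).

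Pafah1b1, which encodes the dynein regulator Lis1, had 0.739, 1.09, 1.5 and 1.10 in CCE and 1.63, 1.29, 3.06 and 1.89 in FH (log2 difference 0.79 ± 0.30, limma adjusted p = 0.215), with a Ribo-Zero fold of 1.34 (1.16 to 1.54). The cyclin genes Ccnd1 and Ccnd2 had log2 differences of 0.16 and 0.58 and Ribo-Zero folds of 1.2 (0.991 to 1.45) and 1.00 (0.864 to 1.16). Igf2bp1, which encodes an mRNA-binding protein of embryonic cells, had -0.27 and 0.987-fold (0.835 to 1.17). The intervals of Ccnd1, Ccnd2 and Igf2bp1 all include 1, and the 3′ UTRs of Ccnd1 and Igf2bp1 overlap Oraov1 and AL606704.1, whose tags cannot be told apart from theirs.

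Gene lists by function gave few calls. Of 15 members encoding 3′ UTR-binding proteins, 2 were called higher, Eif2c2 and Rc3h2, and none lower, against 2.16% and 0.393% of all members. Both had no proximal tag in FH and Ribo-Zero folds near 1. With a floor of 3 tags in its empty window, the Eif2c2 ratio was 1.60-fold higher, a value without counting error (limma adjusted p = 0.0407). Their median log2 difference was 0.32 in RiboMinus and 0.17 in Ribo-Zero. In the list for the neuronal cytoskeleton and adhesion, 6 were members, none was called by limma (1 higher and 1 lower at an unadjusted p under 0.05) and the medians were 0.56 and 0.28. All 6 were above 0 in Ribo-Zero, against 69.3% of all members, and none was over 2-fold. Dpysl3, a microtubule-associated protein gene, had 0.60 ± 0.24 (limma adjusted p = 0.226), Ncam1, a neural cell adhesion gene, had 0.52 ± 0.37 (limma adjusted p = 0.595) and Dpysl2 had -0.74 ± 0.34 (limma adjusted p = 0.338).

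The lists that follow are read beside 2.16% higher and 0.393% lower calls, 10.7% and 2.95% at an unadjusted p under 0.05, and medians of 0.21 (RiboMinus) and 0.23 (Ribo-Zero) over all members. The 7 members of the cell cycle list had medians of 0.16 and 0.17, with 0 calls by limma and 2 higher and 1 lower at an unadjusted p under 0.05. The 7 small GTPase genes had 0.48 and 0.28 with 0 calls and 0 at an unadjusted p under 0.05, and Rab1, a GTPase gene of early secretion, had 0.62 ± 0.31 (limma adjusted p = 0.409). The 7 chromatin regulators had 0.58 and -0.02 with 0 calls and 0 at an unadjusted p under 0.05, with 3 of 7 above 0 in Ribo-Zero. Arid1b and Dnmt3a were over 2-fold higher there, beside 15.9% of all members, and Arid1b rests on 2 distal tags in CCE. Of the cleavage and polyadenylation genes 1, Cpsf2, was a member, with a log2 difference of 0.09 in RiboMinus and 0.76 in Ribo-Zero.

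The levels of genes that act on 3′ ends were compared as well, in RPKM over merged exons. Of 10405 genes tested, 2630 (25.3%) were higher and 5296 (50.9%) lower in FH (limma on log2 RPKM plus 1, adjusted p under 0.05), and the median difference was -0.36. Of 20 cleavage and polyadenylation genes tested none was higher (0 at an unadjusted p under 0.05) and 9 were lower. With each preparation centred on the median of all genes (30.6% of all genes higher and 40.9% lower), 2 were higher, and 12 of the 20 lay above that median and 8 below it. Cpsf3, the endonuclease, had 27.0 and 26.8 RPKM in CCE and 8.10 and 10.6 in FH (log2 difference -1.44 ± 0.13, adjusted p = 3.76e-05). Cstf1, a subunit of the cleavage stimulation factor, had 39.5 and 41.9 in CCE and 17.3 and 18.2 in FH (-1.16 ± 0.09, adjusted p = 1.68e-05), and Clp1 had a difference of -1.30 ± 0.16. Cpsf6, a subunit of cleavage factor I, had 31.5 and 31.6 RPKM in CCE and 33.2 and 36.6 in FH (0.14 ± 0.09, adjusted p = 0.193).

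Of 30 entries tested for 3′ UTR-binding proteins, which are 29 genes as the annotation holds Qk as 2 entries, 11 were higher and 13 lower in FH. The Qk entry counted as higher is the minor one (0 and 1.04 RPKM in CCE, 1.89 and 4.87 in FH), while the main Qk entry had a log2 difference of -0.27 and was not called. With the preparation numbers crossed, 8 entries were lower (19.6% of all genes higher and 36.9% lower). The neuronal Hu protein gene Elavl3 had 0.199 and 0 RPKM in CCE and 19.9 and 23.2 in FH, a log2 difference of 4.36 ± 0.16 (limma adjusted p = 5.79e-07). Elavl2 and Elavl4 differed by 3.20 and 3.28 and Celf4 by 2.55. Igf2bp1 fell from 62.4 and 57.6 RPKM in CCE to 11.5 and 11.2 in FH (-2.30 ± 0.09, limma adjusted p = 8.09e-07), and Elavl1, whose 3′ UTR is described above, from 33.2 and 36.7 to 13.1 and 13.2 (-1.34 ± 0.10, limma adjusted p = 1.12e-05). Igf2bp1 thus differed in level, while its Ribo-Zero ratio was 0.987-fold.

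Features of the sequence were counted with no test. AATAAA or ATTAAA on the strand of the gene lay in the last 50 bases of 82.9% of the 2035 members, 79.5% of the 44 called higher and 81.0% of all 3321 3′ UTRs. In the first 500 bases a hexamer lay in 43.2% of the 44 and 42.1% of the 323 members over 2-fold higher in Ribo-Zero, against 33.0% of all members and 14.3% of the 28 over 2-fold lower. Between the windows the shares were 72.7% of the 44, 82.4% of the 323 and 70.3% of all members. The distance between the windows grows with length, and the median lengths were 2972.5, 3429 and 3032 bp. ATTTA, the core of AU-rich elements, lay in the distal window of 68.2% of the 44, 72.4% of the 323 and 78.1% of all members. The Pumilio motif TGTANATA was found in 6.82%, 20.4% and 24.8%. The A+T share of the distal window had medians of 52.8%, 56.4% and 57.8% in the same order. The 28 members over 2-fold lower in Ribo-Zero also lay below all members, with 71.4%, 17.9% and a median of 55.4%. Among the 8 called lower the values were 87.5%, 12.5% and 52.6%.

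Matches to the seed (bases 2 to 8) of 4 microRNAs were counted in the distal window, as these are known from embryonic stem cells (miR-294 and miR-302b, which share a seed) or from neural and differentiating cells (miR-9 and let-7). The RefSeq mature sequences are given with the seed in capitals.
mmu-miR-294-3p: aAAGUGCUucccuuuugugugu
mmu-miR-302b-3p: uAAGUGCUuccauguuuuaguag
mmu-miR-9-5p: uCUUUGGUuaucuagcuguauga
mmu-let-7a-5p: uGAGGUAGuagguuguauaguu

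The miR-294 and miR-302b match AGCACTT lay in the distal window of none of the 44 members called higher, 9.91% of the 323 over 2-fold higher in Ribo-Zero and 13.1% of all members. The miR-9 match ACCAAAG was found in 4.55%, 7.74% and 9.19% and the let-7 match CTACCTC in 9.09%, 7.43% and 7.37%. Of the 8 members called lower, 3 (37.5%) held the miR-294 and miR-302b match, 3 the miR-9 match and 0 the let-7 match. Of the 28 members over 2-fold lower in Ribo-Zero these were 7.14%, 10.7% and 10.7%. A match is a description of the sequence and not a site of action.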

How the data were processed

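The analysis used the tag lists of 14 RiboMinus and 2 Ribo-Zero libraries (16 in all). The authors aligned reads with Bowtie to mm9 and deposited each uniquely aligned tag as 1 line with its start and end. A score that the authors also deposited is constant within each library and carries no information here. Reads were 36 nt (RiboMinus) or 51 nt (Ribo-Zero). Preparation numbers, fragmentation and location follow the labels and the study's list of lanes, while the protocol text of sheared samples also describes hydrolysis. For each tissue 3 additional lanes, and 2 samples that combine lanes, were not analysed here.

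The members and lists were chosen with earlier results of these data known. Tag midpoints were counted in the first 500 and last 1000 bp of each 3′ UTR (GENCODE M1, stop codon left out). Tags of both locations were summed per preparation, and log2 ratios with a pseudocount of 1 were tested over all 2035 members with limma 3.58.1 in R 4.3.3, with the mean tag number as trend and Benjamini-Hochberg adjustment. Counts of 0 used a floor of 3 tags. A position counts as reachable where its 36-mer occurs once in the genome, and 1565 members (76.9%) had both windows at least 95% reachable. RPKM was computed here and tested in genes over 3 in at least 1 tissue. Named genes were the 12 largest differences per direction with at least 50 tags in the windows per tissue, no overlap with another gene's exon and all FH libraries on one side of all CCE libraries, filled with genes that did not pass, plus 5 members of a list of known alternative 3′ UTRs, of which 1 further gene is not reported here. The pipeline was tested on simulated data, where the share of false calls exceeded the nominal level. Alternatives were other pseudocounts, filters, windows, denominators, units, centring, crossed numbers, a replicate block, single locations, tags of one start counted once, and each preparation or library left out. The share of soft-masked bases could not be given, as the genome sequence holds none in lower case. Counting, exact tests and plots used scipy 1.17.1, pandas 2.3.3, numpy 2.4.6 and matplotlib 3.10.9 in Python 3.11.15.

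The labels give both tissues preparation numbers 1 and 2. The numbers do not pair samples of the tissues, which share no RNA, and the check of the numbers between locations is given in the report.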

Additional observations from a re-analysis of the deposited data

Results flagged for a closer look

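Of 58 groups of 4 hydrolysed libraries of 1 tissue that were examined, 3 had 1 library far from the other 3, where chance alone marks about 1 in 20. The log2 distal to proximal ratio of Crebzf in the CCE1 Vienna-IMP library was -2.72, above the other CCE libraries. For Nmt1 the FH2 Vienna-IMP library had -0.30, above the other FH libraries, which lie close together. For 2610203C20Rik the FH2 Vienna-IMP library had -2.07, above the other FH libraries. Crebzf and 2610203C20Rik did not pass the test between tissues.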

How the results depend on the processing

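Counts are given as members higher and lower in FH, beside 44 and 8. No member passed with the 20-tag limit applied to all files (2710 3′ UTRs), without that limit (2920) or with Nijmegen libraries alone, which gave 0 and 0 each in limma, with 309, 323 and 184 at an unadjusted p under 0.05. Vienna-IMP libraries alone gave 1 and 1, crossed numbers 1 and 1, CCE numbers alone crossed 11 and 4, and the last 500 bp as distal window 2 and 1. Higher calls numbered 28 with a pseudocount of 0.5, 27 with coding exons as denominator, 26 after centring, 25 with 8 libraries as samples and 17 with tags of one start counted once. A pseudocount of 5 gave 72 and 13. Lower calls numbered 5 with the first 1000 bp as proximal window and 5 without overlapping 3′ UTRs. The replicate block, with numbers that pair no samples between tissues, gave 62 and 12. Leaving out single libraries or preparations gave 0 to 14 higher and 0 to 4 lower. These were 12 and 2, 8 and 1, 8 and 3, and 10 and 2 without the CCE1 and CCE2 libraries of Vienna-IMP and those of Nijmegen, and 3 and 2, 13 and 4, 14 and 3, and 7 and 1 without the FH libraries in the same order. Without any 1 preparation they were 0 and 0, with 157 to 168 at an unadjusted p under 0.05. Of the 44 and 8, all kept their sign under each of these settings that tested them, apart from the following exceptions. They were coding exons as denominator (41 of 44), a pseudocount of 5 (43 of 44) and sheared preparations added (43 of 44). Adding sheared preparations gave 54 and 9 and called 37 of the 52. All these settings reuse tags that gave the calls, so kept signs are no independent support.

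The difference of the per-preparation medians, 0.157, was 0.10 as a ratio of summed tags and 0.12 to 0.20 without 1 preparation. Members over 2-fold lower in Ribo-Zero fell to 17 with at least 50 tags. Hydrolysed minus sheared stayed between 0.0885 and 0.112 without 1 pair, where 5 pairs cannot pass. Of the cleavage and polyadenylation genes 2 were higher after centring, and of the 3′ UTR-binding protein genes 8 were lower with crossed numbers. Of 921 values for 28 named genes, 638 kept direction and call, 265 lost the call, 7 gained it and 11 changed sign. Sign changes were 0.32 (sheared preparations added), 0.044 (coding denominator) and 0.45 (last 500 bp) for 2610203C20Rik, 0.13 for Rmnd5a, -0.26 for Ccnd2 and 0.083 for Igf2bp1 (coding denominator), and 0.15 for Ube2h (first 1000 bp). Without single libraries or preparations Elavl1 ranged from -0.011 to 1.53 and Ccnd1 from -0.083 to 0.65. The causes were not tested. Depth limits single RiboMinus libraries to a median of 7 to 40 tags per 3′ UTR.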
